A study of Homo sapiens with 59 samples.

Results

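The genes described here are 40 transcripts of the ATF4 amino acid response, taken by name from the 60675 genes of a deposited expression table. The cells were HepG2, a line established from a human hepatocellular carcinoma. The rule was a fixed list of gene names in 4 classes: 11 enzymes that make amino acids or one-carbon units, 7 amino acid transporters, 10 aminoacyl-tRNA synthetases and 12 regulators. All 40 were found and all 40 passed the filter on low counts, although CHAC1 passed only through the groups in which it was high. No measured value entered the rule, but the list was chosen with earlier results of these data known. Cells were treated for 24 h, and mRNA libraries made with a directional kit were sequenced. The treated groups were 10 uM wortmannin, the positive control, which blocks phosphoinositide 3-kinases, and water extracts of 6 herbal medicines at 3 doses each. Coptidis Rhizoma was given at 8.4, 42 and 210 ug/mL. The doses were 20, 100 and 500 ug/mL for the other 5, which were Scutellariae Radix, Zingiberis Rhizoma Recens (the fresh rhizome of ginger), Zingiberis Rhizoma (the dried rhizome), Zizyphi Fructus and Pinelliae Tuber. All were set against cells given DMSO vehicle, labelled 0.1% per sample, whereas the text on the series states 2%. The labels of the extract groups give no DMSO content. Of the 20 groups, 19 held 3 libraries and Pinelliae Tuber 20 ug/mL held 2. The series text sets the top dose of an extract at its IC20 (the concentration that inhibits cells by 20%) where that lies below 500 ug/mL. Vehicle and wortmannin libraries carry one first number in their titles and the extracts carry others, whose meaning is not given, so that the treatment and whatever that number marks cannot be told apart in the comparisons with vehicle. The labels do not say whether the replicates of a group are separate cultures. The p-values hence cover only the spread between these libraries, which may be technical.

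ATF4 is a transcription factor whose messenger RNA is translated better when the initiation factor eIF2 is phosphorylated by a stress kinase, for example GCN2 when amino acids run short or PERK when proteins misfold in the endoplasmic reticulum. It pairs with C/EBP proteins and binds C/EBP-ATF response elements. Its targets supply amino acids, by synthesis, uptake and charging of tRNA, and include brakes on the same pathway, such as PPP1R15A, which directs the removal of phosphate from eIF2. In liver cells the programme also feeds the serine, one-carbon and cysteine pathways.

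The response element was searched for as TGATGNAA on either strand, in RefSeq promoters of 300 bases (250 before to 50 after each transcript start, build GRCh38.p14). It was found in 1270 of 35116 promoters of all genes (3.62%) and in 14 of 56 promoters of the 35 members in the table (25%). By gene, 7 of 10 synthetases held it, 4 of 7 transporters, 2 of 11 regulators and 1 of 7 synthesis enzymes, against 4.46% of all genes with a promoter there. NUPR1, PSPH, ALDH1L2, SHMT2 and PYCR1 had no promoter in the table. The ASNS promoter is shown because ASNS was among the members that changed most, and its element is in capitals (250 bases before the start, minus strand, chr7:97872409-97872658).
ASNS: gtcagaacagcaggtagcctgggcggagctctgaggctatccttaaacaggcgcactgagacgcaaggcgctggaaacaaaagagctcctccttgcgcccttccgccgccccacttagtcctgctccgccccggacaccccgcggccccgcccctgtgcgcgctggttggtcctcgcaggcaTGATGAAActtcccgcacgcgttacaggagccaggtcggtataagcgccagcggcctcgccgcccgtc

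The element of ASNS lay 68 to 61 bases before the start. The sites of the 7 synthetases are shown, as the class in which the element was most frequent, with those of CHAC1, CEBPG and SLC1A5 for the other classes. Each window holds 30 bases read on the strand that carries the element, and capitals mark the element.
AARS1: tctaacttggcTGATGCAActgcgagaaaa
CARS1: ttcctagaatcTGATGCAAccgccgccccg
GARS1: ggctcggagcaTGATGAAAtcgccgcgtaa
IARS1: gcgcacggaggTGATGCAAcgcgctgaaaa
MARS1: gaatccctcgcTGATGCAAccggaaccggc
NARS1: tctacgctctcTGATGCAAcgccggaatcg
TARS1: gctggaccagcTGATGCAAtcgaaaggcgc
CHAC1: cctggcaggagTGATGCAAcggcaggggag
CEBPG: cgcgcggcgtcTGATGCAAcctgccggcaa
SLC1A5: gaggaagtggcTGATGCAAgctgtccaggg
Positions are counted along the gene from the transcript start. The element spanned -187 to -180 in AARS1 (chr16:70289686-70289693), -33 to -26 in GARS1 (chr7:30594845-30594852) and -13 to -6 in IARS1 (chr9:92293703-92293710). It crossed the start in CARS1, at -2 to 6 (chr11:3057418-3057425), and in MARS1, at -4 to 4 (chr12:57488064-57488071). It lay inside the transcribed exon in NARS1, at 15 to 22 (chr18:57621815-57621822), and in TARS1, at 3 to 10 (chr5:33440967-33440974). It spanned -209 to -202 in CHAC1 (chr15:40953262-40953269), -42 to -35 in CEBPG (chr19:33374071-33374078) and -97 to -90 in SLC1A5 (chr19:46784904-46784911). Of the sites in these windows, those of NARS1, CEBPG and SLC1A5 lay on the gene's strand and the others on the opposite strand. At the top dose of Coptidis the median log2 changes were 1.08 in the 14 members with the element and 1.19 in the 21 without it. A match in letters is no evidence of binding, and the element was not found in the windows of PPP1R15A or CTH, which rose by 4.03 and 2.35 at that dose.

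Libraries held 21582603 to 31392069 counts. Levels are in CPM, read counts put on 1 total for every library after TMM scaling, which are shares of each bulk library, so that a change in the share of responding cells and a change in RNA per cell cannot be told apart. A gene is called when its Benjamini-Hochberg adjusted p in edgeR's quasi-likelihood test is under 0.05 over all 16641 genes tested. Log2 changes are followed by their standard error (SE), and a group's values by the SD over its libraries. The liver identity of the cells was checked with 9 hepatocyte markers, among them ALB and AFP. Their summed level was 24182 to 25215 CPM in Coptidis 210 ug/mL libraries and 28331 to 29197 in Scutellariae 500 ug/mL libraries, against 42424 to 43206 in vehicle libraries. Of 10 markers of other cell types, the leukocyte genes PTPRC, MS4A1 and CD3E were at 0 in 19 of 20 groups each. Others were counted in every group, with group means of 120.9 to 153.5 CPM for EPCAM and 32.72 to 82.12 for ACTA2. CD68, a macrophage marker, was at 28.99 to 78.21 CPM and PECAM1 at 1.999 to 4.247. COL1A1, COL3A1 and DES did not exceed 1.17 CPM. The sum of all 10, most of it EPCAM, lay between 204 and 265 CPM in every library. The part of these shifts in the results was not tested. Replicate 1 of dried ginger 500 ug/mL, replicate 3 of Pinelliae 100 ug/mL and replicate 1 of Zizyphi 20 ug/mL stood apart from their groups, by a chi-square over genes.

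The response rose with 4 of the 6 extracts and was highest with Coptidis. At its 8.4, 42 and 210 ug/mL doses, 31, 36 and 36 of the 40 members rose and 1, 1 and 4 fell, where 16%, 46.9% and 69.4% of all genes were called. At the top dose of Scutellariae 34 rose and 2 fell (50.2% of all genes called), with fresh ginger 29 rose and 4 fell (46%) and with dried ginger 24 rose and 5 fell (42.4%). Without CHAC1 the numbers that rose were 35, 33, 28 and 23 of 39 at the top doses of Coptidis, Scutellariae, fresh ginger and dried ginger. They were 31 and 35 of 39 at 8.4 and 42 ug/mL of Coptidis. The members' median log2 change at these doses was 1.08 (Coptidis), 0.53 (Scutellariae), 0.26 (fresh ginger) and 0.18 (dried ginger), where the median of all genes lay within 0.02 of 0. Setting CHAC1 to its lower bound left these medians as they were. These comparisons share the vehicle libraries. In all 4 of them 22 members besides CHAC1 rose, and ALDH18A1 and PSPH fell. Of the 22, 19 rose under every alternative run, among them ASNS, ATF4, SESN2, TRIB3 and PPP1R15A. The exceptions were CEBPB with both gingers, and CTH and WARS1 with dried ginger. CEBPB lost its call in 4 of 13 alternatives with fresh ginger and in 2 of 13 with dried ginger. The fall of ALDH18A1 with dried ginger did not pass the test in 3 of 13 alternatives.

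**Figure D1:**
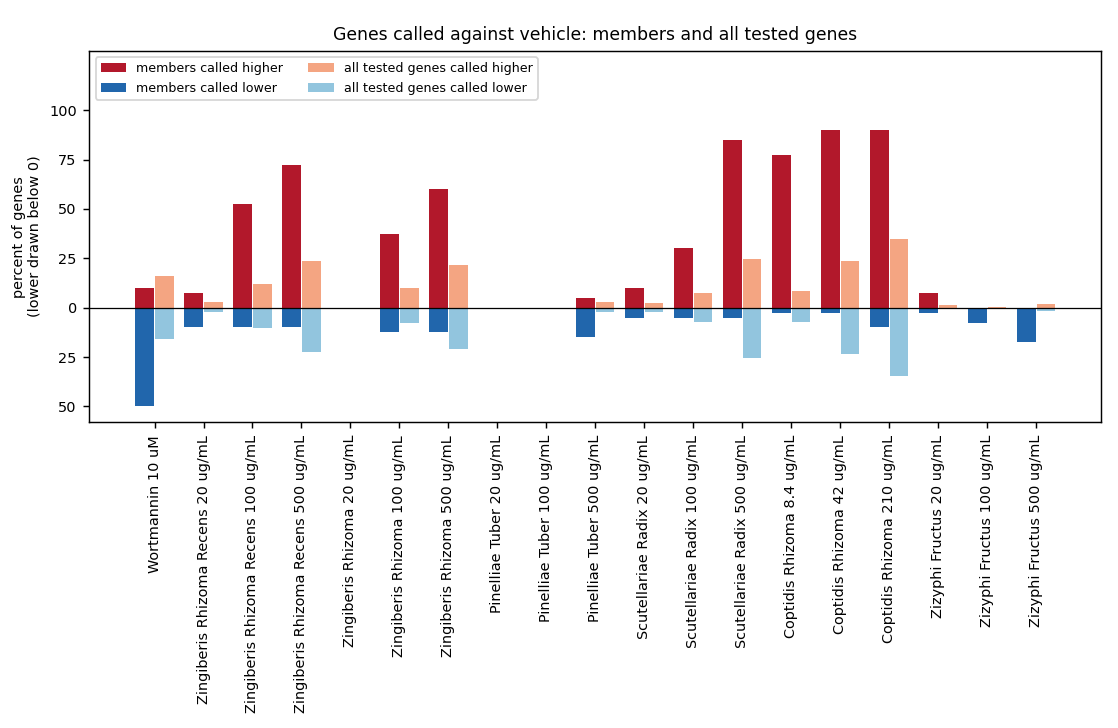
Share of the 40 members (dark bars) and of all 16641 tested genes (pale bars) called higher (above 0) or lower (below 0) than vehicle in each treated group, in percent. Members called higher stand far above the pale bars in the 3 Coptidis groups, in the top dose of Scutellariae and in the upper 2 doses of both gingers, and members called lower do so with wortmannin.

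**Figure D2:**
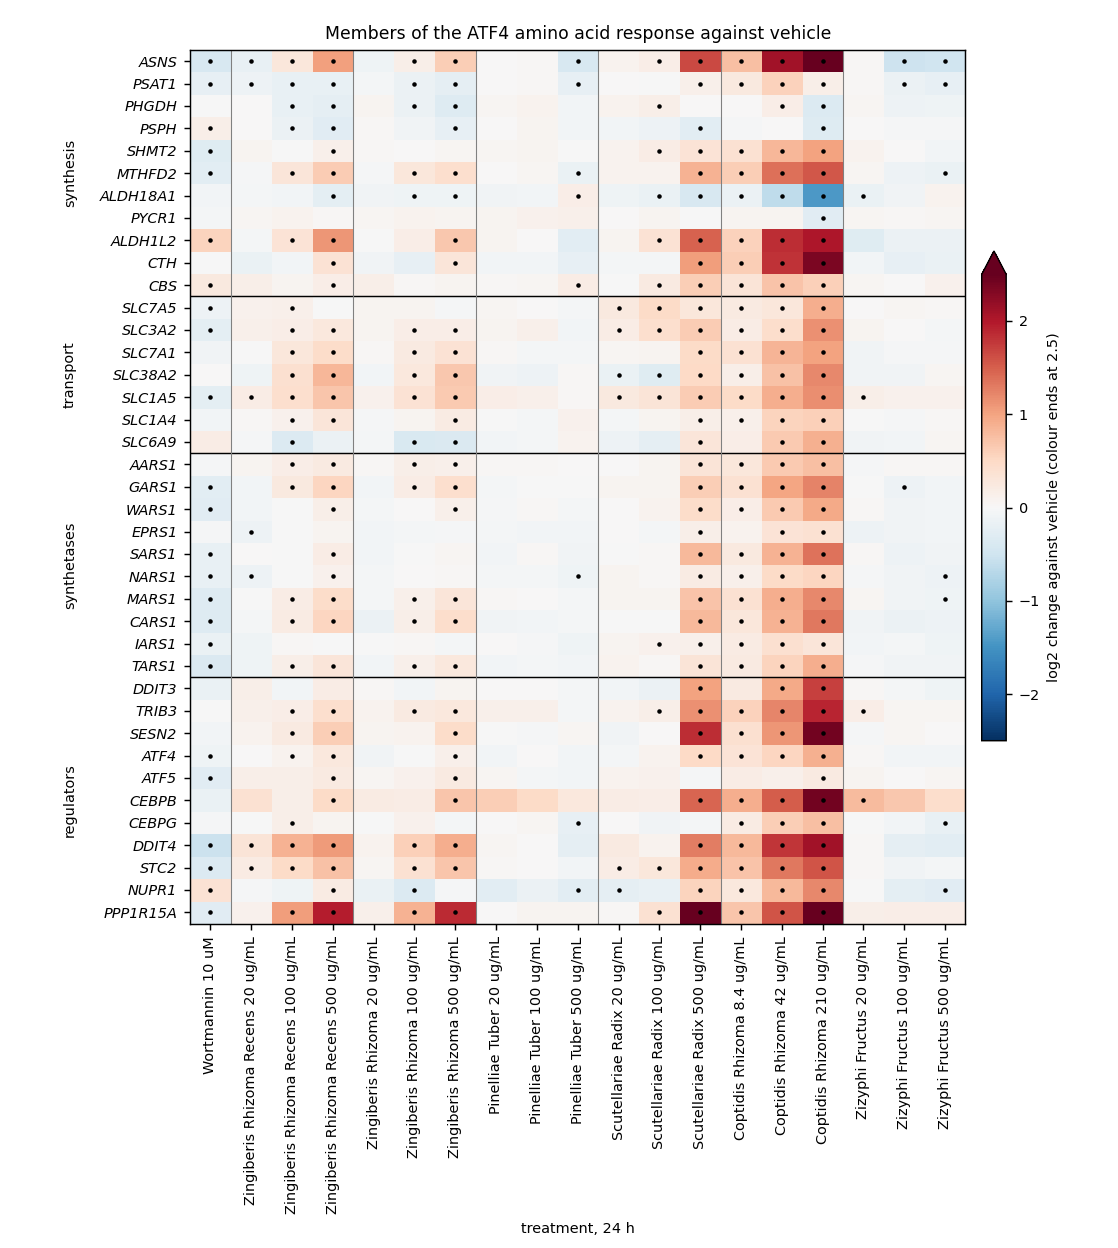
Log2 change against vehicle of 39 members (rows, by class) in the 19 treated groups (columns), with a dot where the gene was called. CHAC1 is left out because vehicle libraries held no count of it. Coptidis columns are red in nearly every row, with ALDH18A1 blue, and the columns of Pinelliae and Zizyphi are pale.

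Among the regulators with counts in vehicle libraries, PPP1R15A changed most. It stood at 14.3, 15.4 and 15.8 CPM in vehicle libraries, 24.3, 22.6 and 26.7 at 8.4 ug/mL of Coptidis, 47.5, 43.6 and 44.5 at 42 ug/mL, and 246, 271 and 226 at 210 ug/mL. The 4 groups do not overlap, and the step to the top dose is the steepest. The log2 change at 210 ug/mL against vehicle was 4.03 (SE 0.062, adjusted p = 2.68e-45). With 500 ug/mL of Scutellariae it stood at 149, 136 and 149 CPM (log2 change 3.25, SE 0.062), and with the same dose of fresh ginger at 60.2, 59.6 and 57.2 CPM (1.96, SE 0.064).

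The ATF4 transcript itself moved less than the members that changed most, such as PPP1R15A and ASNS. It stood at 328, 321 and 315 CPM in vehicle libraries, 397, 398 and 420 at 8.4 ug/mL of Coptidis, 466, 469 and 463 at 42 ug/mL, and 586, 623 and 575 at 210 ug/mL. Each dose lay above the one before without overlap, and the log2 changes against vehicle were 0.34, 0.54 and 0.89 (SE 0.030 each). With Scutellariae 500 ug/mL its values were 441, 456 and 467 CPM, a log2 change of 0.50 (SE 0.030). The members' median log2 changes were 0.28, 0.77 and 1.08 at those Coptidis doses and 0.53 at this Scutellariae dose.

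DDIT3, which encodes the stress factor CHOP, was at 41.1, 40.8 and 40.4 CPM with Coptidis 210 ug/mL, 25.3, 23.9 and 22.9 with 42 ug/mL and 14.6, 14.4 and 14.6 with 8.4 ug/mL, against 11.4, 13.4 and 12.5 in vehicle libraries. The top dose gave a log2 change of 1.71 (SE 0.086), and the lowest did not pass the test (0.23, adjusted p = 0.0995). It rose by 1.00 (SE 0.089) with Scutellariae 500 ug/mL and did not pass the test with either ginger. DDIT3 shares part of its locus with MARS1 on the opposite strand, and the strand setting of the counting is not given in the sources used here. MARS1 rose by 1.20 at the top dose of Coptidis and by 0.45 with fresh ginger, and the part of its reads in the DDIT3 count was not tested.

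TRIB3, a pseudokinase that binds ATF4 and CHOP and dampens them, was at 456, 444 and 437 CPM with Coptidis 210 ug/mL, against 118, 116 and 122 in vehicle libraries (log2 change 1.91, SE 0.039). SESN2, the leucine-sensing brake on the growth kinase complex mTORC1, was at 116, 124 and 119 CPM, against 20.8, 23.4 and 23.6 (2.40, SE 0.063). DDIT4, another brake on mTORC1, was at 140, 135 and 150 CPM, against 30.8, 28.9 and 39.2 (2.10, SE 0.079). All 3 genes had every library of the top dose above every vehicle library, where 69.4% of all genes were called. Such separation was not counted over all genes.

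CEBPB, which encodes a partner of ATF4, was at 116, 104 and 114 CPM with Coptidis 210 ug/mL, against 19.2, 20.5 and 22.6 in vehicle libraries (log2 change 2.42, SE 0.17). This SE was the largest of the 39 members other than CHAC1. The dried ginger 500 ug/mL libraries held 50.1, 23.5 and 28.0 CPM, the first of them the library that stood apart, and their log2 change was 0.70 (SE 0.18). Without that library it was 0.30 and did not pass the test (adjusted p = 0.177). Its antisense transcript CEBPB-AS1 had 2.22% of its count. STC2, a secreted glycoprotein gene, rose by 1.58, NUPR1, a small stress-induced chromatin protein gene, by 1.20, and CEBPG, another partner of ATF4, by 0.75. ATF5, a close relative of ATF4, rose by 0.23 (adjusted p = 0.00339), the least of the 12 regulators, and by 0.11 without passing the test where library totals were not scaled (adjusted p = 0.157). It overlaps the more abundant NUP62 on the other strand.

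CHAC1, which degrades glutathione, was scarcely transcribed. Its 3 libraries held 20, 16 and 18 counts with Coptidis 210 ug/mL, 5, 10 and 7 with 42 ug/mL, 2, 0 and 4 with 8.4 ug/mL, 5, 10 and 5 with Scutellariae 500 ug/mL, and 0, 0 and 0 with vehicle. Against a floor of 3 counts over the vehicle group (0.0388 CPM), it was at least 18.1-fold higher with Coptidis 210 ug/mL, at least 7.49-fold higher with 42 ug/mL and at least 6.98-fold higher with Scutellariae 500 ug/mL. These bounds allow for counting error in the vehicle group only. The counts of the treated groups were taken as observed, and the spread between libraries is not covered.

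**Figure D3:**
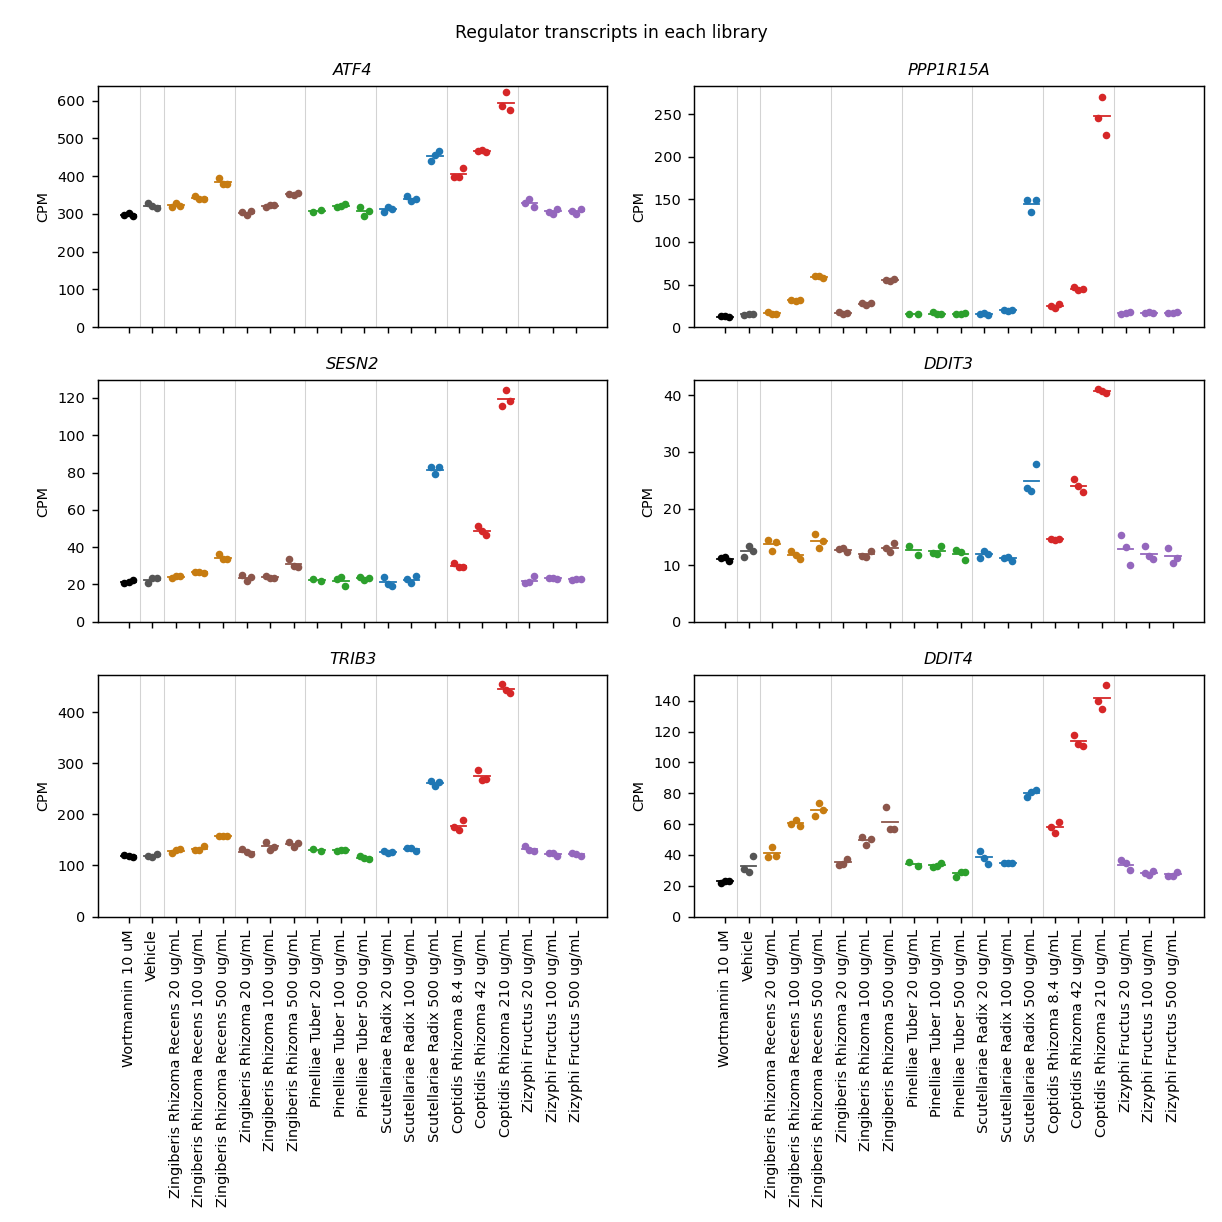
CPM of ATF4, PPP1R15A, SESN2, DDIT3, TRIB3 and DDIT4 in each of the 59 libraries (points) with the group mean (bar), by group, on linear axes from 0. In all 6 panels the 3 Coptidis 210 ug/mL libraries lie above every other library; in the PPP1R15A panel they hold 226 to 271 CPM, and the next group is Scutellariae 500 ug/mL at 136 to 149 CPM.

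The synthesis enzymes split. At 210 ug/mL of Coptidis 7 of the 11 rose and 4 fell, where 69.4% of all genes were called. ASNS, which makes asparagine, stood at 47.0, 44.4 and 40.2 CPM in vehicle libraries, 70.5, 74.5 and 75.7 at 8.4 ug/mL, 190, 185 and 188 at 42 ug/mL, and 260, 257 and 267 at 210 ug/mL. No library of one dose reached those of the next, and the log2 changes against vehicle were 0.75 (SE 0.052), 2.09 (SE 0.050) and 2.57 (SE 0.050, adjusted p = 6.45e-41).

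CTH, which releases cysteine from cystathionine, was at 47.6 ± 2.1 CPM with Coptidis 210 ug/mL, against 9.33 ± 0.467 with vehicle (SD, n = 3 each; log2 change 2.35, SE 0.081). CBS, which makes cystathionine, rose by 0.60 (SE 0.048). It was at 72.1 ± 3.17 CPM at the top dose and 77.7 ± 2.15 at 42 ug/mL, against 47.7 ± 1.73 with vehicle (SD, n = 3 each), and a gene annotated as its near copy held 0.7% of its count.

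The mitochondrial one-carbon enzymes rose together with Coptidis. MTHFD2, a methylenetetrahydrofolate dehydrogenase of the mitochondrion, was at 387, 368 and 401 CPM with 210 ug/mL, against 126, 134 and 133 in vehicle libraries (log2 change 1.55, SE 0.048). ALDH1L2, which oxidises formyltetrahydrofolate there, was at 14.8, 17.2 and 14.9 CPM, against 4.09, 3.72 and 3.69 (2.02, SE 0.10). ALDH1L2 overlaps NOPCHAP1 on the other strand, which held 179% of its count over all libraries. SHMT2, the mitochondrial serine hydroxymethyltransferase, rose by 1.01 (SE 0.034).

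Of 7 paralogs of these enzymes outside the list, 1 rose and 4 fell at 210 ug/mL, a share called close to the 69.4% of all genes. The mitochondrial formate-tetrahydrofolate ligase MTHFD1L rose by 1.13 (SE 0.042). The cytosolic enzymes fell: SHMT1 by 1.55 (SE 0.042), MTHFD1 by 0.99 (SE 0.027) and ALDH1L1 by 0.98 (SE 0.046), and so did PYCR3, a pyrroline-5-carboxylate reductase, by 1.18 (SE 0.10). SHMT1 held 20.8 ± 0.893 CPM with Coptidis 210 ug/mL, against 60.9 ± 0.977 with vehicle (SD, n = 3 each).

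ALDH18A1, which makes the proline precursor pyrroline-5-carboxylate from glutamate, fell with dose. It stood at 318, 308 and 318 CPM in vehicle libraries, 273, 285 and 290 at 8.4 ug/mL of Coptidis, 203, 200 and 204 at 42 ug/mL, and 116, 115 and 116 at 210 ug/mL. The groups do not overlap, and the log2 changes were -0.16 (SE 0.034), -0.64 (SE 0.034) and -1.44 (SE 0.035). PYCR1, which completes proline synthesis, fell by 0.28 (SE 0.045) at the top dose and did not pass the test at 42 ug/mL (0.07, adjusted p = 0.22).

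The 3 enzymes of serine synthesis did not follow the dose of Coptidis. PSAT1, the second of them, stood at 326, 324 and 325 CPM in vehicle libraries, 386, 388 and 381 at 8.4 ug/mL, 488, 478 and 495 at 42 ug/mL, and 369, 345 and 368 at 210 ug/mL. Its highest group was thus the middle dose. PHGDH, which opens the pathway, was at 107, 101 and 105 CPM at the top dose and 152, 144 and 154 at 42 ug/mL, against 131, 132 and 136 in vehicle libraries. PSPH, which closes it, fell by 0.32 (SE 0.050) at the top dose, where all 3 libraries lay below every vehicle library.

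The comparison of 210 with 42 ug/mL of Coptidis was added after these values were seen and is a description of that turn. Of the 40 members 28 were higher at 210 ug/mL and 7 lower, where 56.4% of all genes were called. All 7 lower members but IARS1 were synthesis enzymes: ALDH18A1 at -0.80, PHGDH at -0.52, PSAT1 at -0.43, PYCR1 at -0.35, PSPH at -0.33 and CBS at -0.11 on the log2 scale (adjusted p of PSAT1 2.5e-16). The calls of CBS and IARS1 were lost in 8 and 4 of 13 alternatives, with adjusted p of up to 0.266 and 0.251. Among the higher members, the calls of CHAC1, AARS1, CEBPG and SLC6A9 were lost in 3, 2, 1 and 1 of 13. Of the 12 regulators 11 were higher, CHAC1 among them, PPP1R15A by 2.45 and SESN2 by 1.29.

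**Figure D4:**
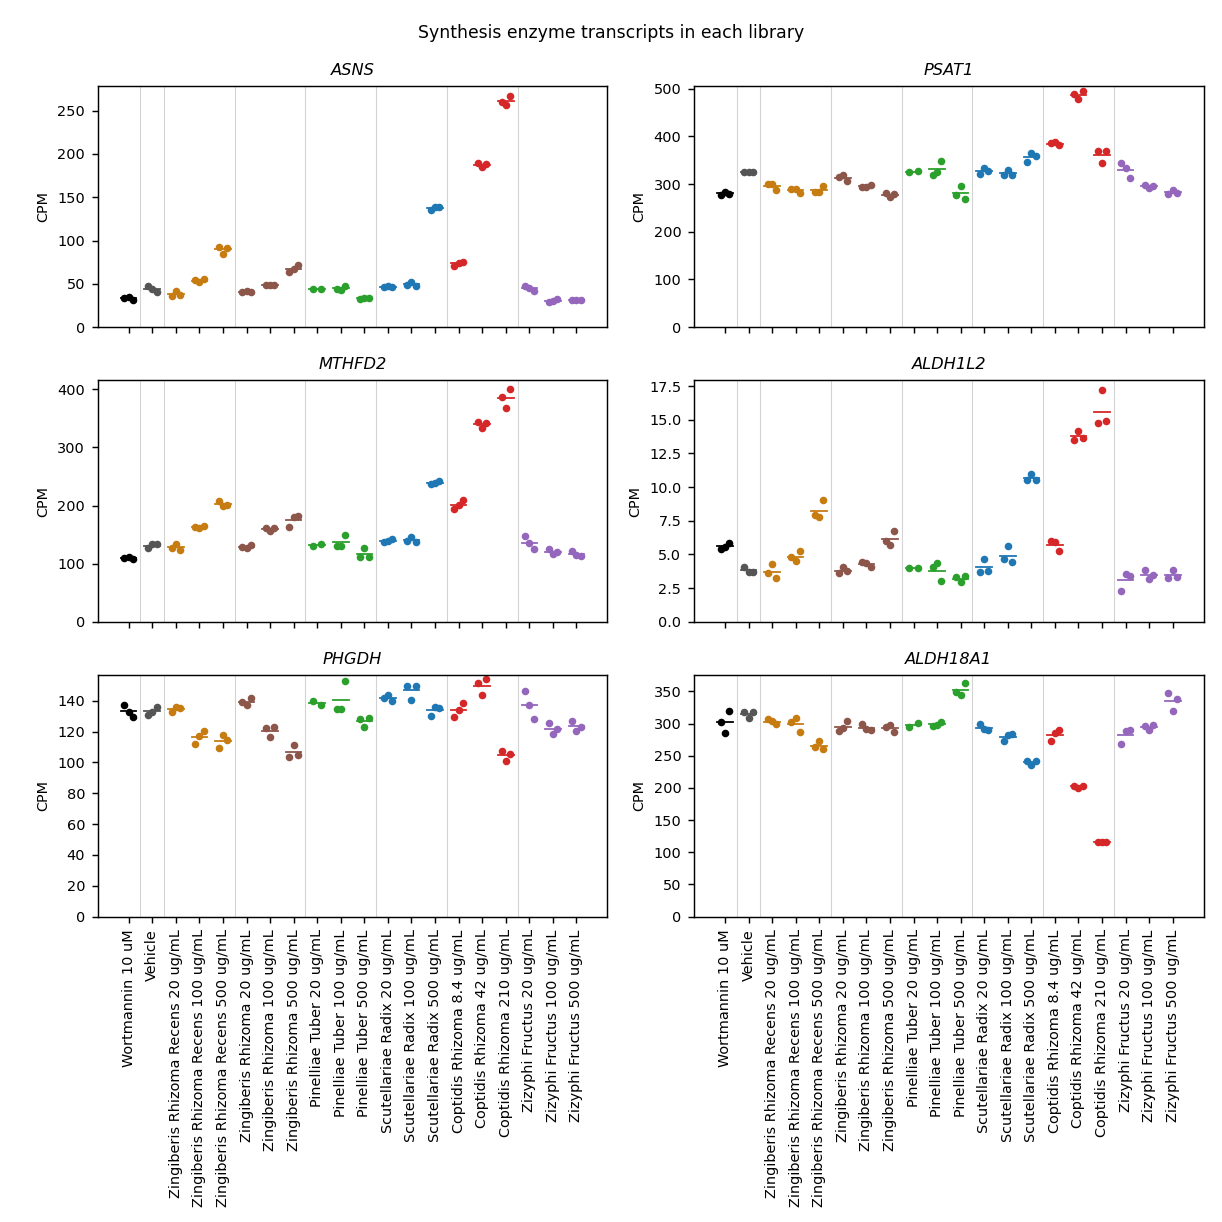
CPM of ASNS, PSAT1, MTHFD2, ALDH1L2, PHGDH and ALDH18A1 in each of the 59 libraries (points) with the group mean (bar), by group, on linear axes from 0. ASNS, MTHFD2 and ALDH1L2 climb with the dose of Coptidis, PSAT1 and PHGDH are highest, among the Coptidis doses, at 42 ug/mL (means 487 and 150 CPM), and ALDH18A1 descends to 116 CPM at 210 ug/mL.

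All 7 transporters rose at the top dose of Coptidis, where 69.4% of all genes were called. SLC38A2, a sodium-coupled carrier of small neutral amino acids, stood at 826, 808 and 854 CPM in vehicle libraries, 939, 928 and 900 at 8.4 ug/mL, 1379, 1348 and 1399 at 42 ug/mL, and 1907, 1852 and 1936 at 210 ug/mL (log2 change at the top dose 1.19, SE 0.039). SLC1A5, a glutamine exchanger, was at 516, 521 and 523 CPM at the top dose, against 226, 228 and 241 in vehicle libraries (1.16, SE 0.041).

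SLC3A2, the heavy chain that carries several exchangers to the cell surface, was at 434, 400 and 424 CPM with Coptidis 210 ug/mL, against 190, 190 and 186 (log2 change 1.15, SE 0.040). SLC7A5, the light chain that imports leucine and other large neutral amino acids, was at 1317, 1352 and 1307 CPM, against 711, 688 and 716 (0.91, SE 0.042). SLC6A9, a glycine transporter, was at 30.3, 33.8 and 30.0 CPM, against 17.1, 16.4 and 17.7 (0.88, SE 0.077). SLC7A1, a cationic amino acid transporter, rose by 1.01, and SLC1A4, an alanine and serine exchanger, by 0.59.

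All 10 synthetases of the list rose at 42 and at 210 ug/mL of Coptidis, where 46.9% and 69.4% of all genes were called. SARS1, which charges tRNA with serine, was at 222, 231 and 224 CPM at the top dose, against 87.4, 88.3 and 88.2 in vehicle libraries (log2 change 1.36, SE 0.032). CARS1, for cysteine, was at 71.8, 68.6 and 72.1 CPM, against 28.7, 27.6 and 29.3 (1.31, SE 0.043). GARS1, for glycine in both cytosol and mitochondrion, was at 333, 353 and 348 CPM, against 142, 147 and 148 (1.24, SE 0.031).

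MARS1, for methionine, was at 296, 308 and 303 CPM, against 129, 134 and 133 (log2 change 1.20, SE 0.030). The other 6 rose by less: WARS1 (tryptophan) by 0.94, TARS1 (threonine) by 0.90, AARS1 (alanine) by 0.76, NARS1 (asparagine) by 0.54, EPRS1 (glutamate and proline) by 0.39 and IARS1 (isoleucine) by 0.31. Every top-dose library lay above every vehicle library for all 10 genes, at a dose where 69.4% of all genes were called. How many of all genes separated in this way was not counted.

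The remaining synthetases moved in both directions. Of 10 other cytosolic synthetases 4 rose and 3 fell at 210 ug/mL, a share called close to the 69.4% of all genes, with a median log2 change of -0.02 against 0.92 for the 10 members and 0.00 for all genes. YARS1, for tyrosine, rose by 0.93 and HARS1, for histidine, by 0.66, whereas FARSB, a subunit of the phenylalanine enzyme, fell by 0.41. Of 17 mitochondrial synthetases 2 rose and 11 fell, a share called slightly above the 69.4% of all genes. Their median was -0.24, and LARS2 (-0.79, leucine) and RARS2 (-0.72, arginine) fell most. None of the 6 other cytosolic synthetases in the promoter table and 1 of 14 mitochondrial ones held the response element. The difference between the lists was not tested.

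**Figure D5:**
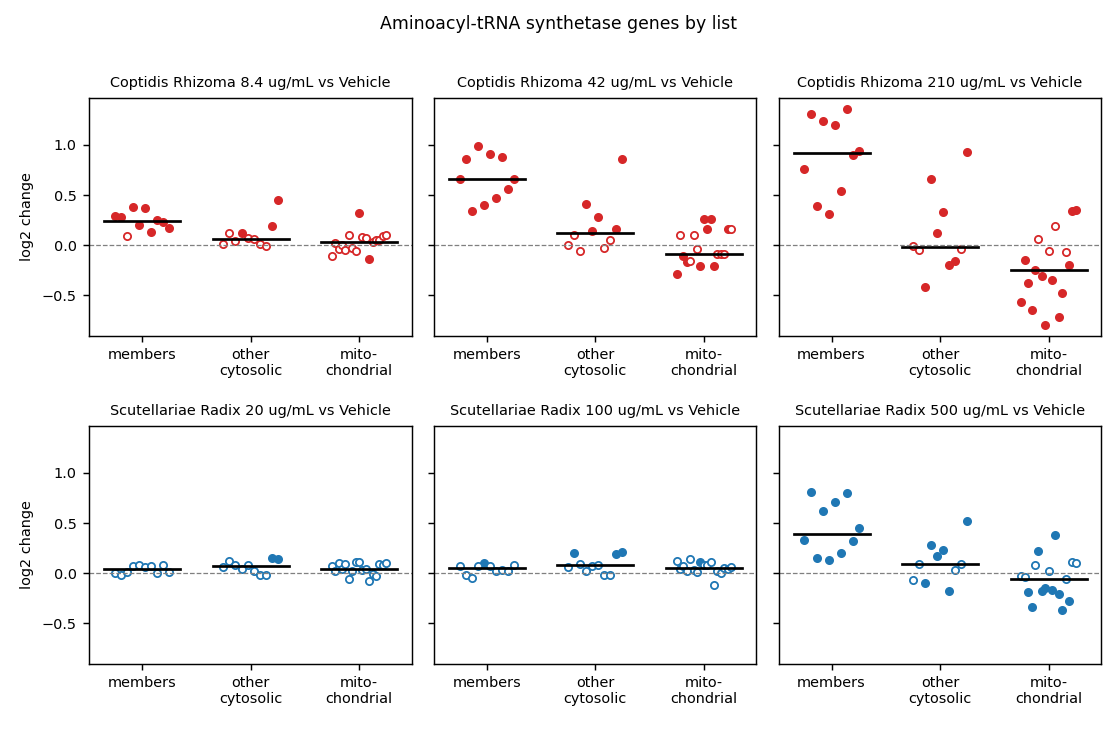
Log2 change against vehicle of each aminoacyl-tRNA synthetase gene (points, filled where called) at 3 doses of Coptidis (top) and Scutellariae (bottom), for the 10 members, 10 other cytosolic and 17 mitochondrial genes, with the list median (bar). The medians at 210 ug/mL of Coptidis are 0.92, -0.02 and -0.24, and at 500 ug/mL of Scutellariae 0.39, 0.09 and -0.05.

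Scutellariae raised the response at its top dose and had a smaller, different pattern below it. At 100 ug/mL 12 members rose and 2 fell (14.6% of all genes called), and at 20 ug/mL 4 rose and 2 fell (4.74%). ASNS was at 135, 139 and 139 CPM with 500 ug/mL, against 47.0, 44.4 and 40.2 in vehicle libraries (log2 change 1.65, SE 0.050). SESN2 was at 82.8, 79.0 and 82.9 CPM, against 20.8, 23.4 and 23.6 (1.85, SE 0.063). All 7 transporters and all 10 synthetases rose at this dose, where 50.2% of all genes were called. ALDH18A1 (-0.39) and PSPH (-0.27) were the members that fell.

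At the 2 lower doses of Scutellariae the transporters moved apart. SLC7A5 stood at 711, 688 and 716 CPM in vehicle libraries, 888, 816 and 815 at 20 ug/mL, 991, 957 and 994 at 100 ug/mL, and 870, 875 and 832 at 500 ug/mL, so that its highest group was the middle dose. SLC38A2 was below vehicle at both lower doses and above it at the top dose, with 738, 734 and 740 CPM at 20 ug/mL, 668, 687 and 650 at 100 ug/mL, and 1206, 1132 and 1175 at 500 ug/mL. Its log2 changes against vehicle were -0.17, -0.31 and 0.50 (SE 0.038 at the top dose), and all 3 passed the test. SLC1A5 rose by 0.24, 0.33 and 0.63 and SLC3A2 by 0.19, 0.41 and 0.64 over the same doses.

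Both gingers raised the response by less than Scutellariae at the same 500 ug/mL, in medians. At 100 ug/mL fresh ginger raised 21 members and lowered 4 (22.2% of all genes called) and dried ginger raised 15 and lowered 5 (17.5%), and at 20 ug/mL fresh ginger raised 3 and lowered 4 (5.1%) and dried ginger gave no call (0.0841%). At that dose of dried ginger 9 members had an unadjusted p under 0.05 in edgeR, and DESeq2 called none. ASNS was at 92.9, 84.8 and 91.7 CPM with 500 ug/mL of fresh ginger and 63.2, 67.1 and 71.3 with dried ginger, against 47.0, 44.4 and 40.2 in vehicle libraries (log2 changes 1.03, SE 0.051, and 0.61, SE 0.052). SLC38A2 was at 1498, 1489 and 1460 CPM with fresh ginger and 1205, 1429 and 1329 with dried ginger, against 826, 808 and 854. With neither ginger do these values overlap with vehicle.

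The synthesis class divided with the gingers too. PSAT1 (-0.18 with fresh and -0.23 with dried ginger), PHGDH (-0.23 and -0.32), PSPH (-0.29 and -0.20) and ALDH18A1 (-0.24 and -0.10) fell at 500 ug/mL, while MTHFD2 (0.63 and 0.42) and ALDH1L2 (1.11 and 0.68) rose. SLC6A9 was the one transporter that fell with dried ginger, at 14.0, 12.8 and 13.4 CPM against 17.1, 16.4 and 17.7 in vehicle libraries (log2 change -0.35, SE 0.084). It also fell with fresh and dried ginger at 100 ug/mL, where its means were 13.4 and 13.2 CPM, and it overlaps CCDC24, which held 9.88% of its count.

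Set directly against dried ginger at 500 ug/mL, fresh ginger had 9 members higher and 1 lower, where 1.83% of all genes were called. ASNS was higher by 0.42 (SE 0.049, adjusted p = 1.48e-07), ALDH1L2 by 0.43 (SE 0.10), MTHFD2 by 0.21, SLC38A2 by 0.17, MARS1 and TRIB3 by 0.16 each, SARS1 by 0.14, and ATF4 and GARS1 by 0.12 each, and ALDH18A1 was lower by 0.14. In every case the fresh libraries lay on one side of all dried libraries, which adds little because the test had picked these members. Of the 40 members, called or not, 18 separated upward and 1 downward, and such separation was not counted over all genes. The count of called members was 6 without fresh replicate 2 and 4 without fresh replicate 3. It was 5 without dried replicate 1, the library that stood apart. At 100 and 20 ug/mL no member passed edgeR's test (0.379% and 0.0481% of all genes called), 8 had an unadjusted p under 0.05 at each dose, and DESeq2 called 2 and 0.

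Wortmannin lowered the response. Of the 40 members 20 fell and 4 rose, where 32.2% of all genes were called, and the median log2 change was -0.14. DDIT4 was at 22.8 ± 0.687 CPM with wortmannin, against 30.8, 28.9 and 39.2 CPM in vehicle libraries (SD, n = 3; log2 change -0.53, SE 0.090). ASNS was at 33.5, 35.2 and 30.8 CPM, against 47.0, 44.4 and 40.2 (-0.41, SE 0.055). The groups do not overlap for either gene.

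The synthetases fell most evenly, 8 of 10, from -0.16 for IARS1 to -0.35 for TARS1, where 32.2% of all genes were called. Of the 10 other cytosolic synthetases 8 fell as well. The medians of these lists were -0.22 and -0.21. ALDH1L2 went the other way, at 5.42, 5.57 and 5.88 CPM with wortmannin against 4.09, 3.72 and 3.69 with vehicle (log2 change 0.55, SE 0.12). NUPR1 rose by 0.37, CBS by 0.25 and PSPH by 0.15. TRIB3 did not pass the test, at 120, 118 and 117 CPM against 118, 116 and 122.

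Pinelliae and Zizyphi lowered a few members at their top dose. With Pinelliae 500 ug/mL 6 fell and 2 rose (4.57% of all genes called), and with Zizyphi 500 ug/mL 7 fell and none rose (3.61%). Zizyphi lowered 3 at 100 ug/mL (0.228%), and at 20 ug/mL it raised 3 and lowered 1 (1.99%). Pinelliae gave no call at 100 ug/mL (0.204%) or at 20 ug/mL (0.00601%), where 8 and 6 members had an unadjusted p under 0.05 in edgeR and DESeq2 called none. ASNS was the most lowered member with both: it was at 32.2, 33.9 and 34.0 CPM with Pinelliae 500 ug/mL and 31.7, 30.7 and 30.8 with Zizyphi 500 ug/mL, against 47.0, 44.4 and 40.2 in vehicle libraries (log2 changes -0.40 and -0.50, SE 0.055 each). PSAT1 (-0.21 and -0.20), NUPR1 (-0.27 and -0.28) and MTHFD2 (-0.17 and -0.17) also fell with both. Of 13 alternatives each, 3 and 4 ended the calls of NUPR1, and 5 and 4 those of MTHFD2.

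With Zizyphi 100 ug/mL ASNS was at 29.3, 30.0 and 32.7 CPM, a log2 change of -0.52, close to that of the top dose. Of the 3 members called with this dose against vehicle, ASNS was the one still called whichever library was left out. The 4 calls with Zizyphi 20 ug/mL, CEBPB, TRIB3, SLC1A5 and ALDH18A1, came from a group with a library that stood apart. None passed the test without that library alone, and 3 of them, all but TRIB3, did in a fit without any of the 3 libraries that stood apart. ALDH18A1 was among the few that rose with Pinelliae 500 ug/mL, at 348, 345 and 363 CPM against 318, 308 and 318 in vehicle libraries (0.16, SE 0.034).

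Setting an extract's highest dose against its lowest uses no vehicle library. Here, 34 members were higher and 5 lower at the top dose of Coptidis (65.8% of all genes called), 32 and 2 with Scutellariae (49.9%), 26 and 4 with fresh ginger (48.1%) and 25 and 5 with dried ginger (41%). With Zizyphi 2 were higher and 12 lower (7.22%), and with Pinelliae 1 and 4 (1.9%). CHAC1 is kept among the 40 members in these counts. With dried ginger its call rested on 7 counts at 500 ug/mL against 0 at 20 ug/mL. That call was lost in 1 of 11 alternatives. ASNS was lower by 0.52 with Zizyphi and by 0.41 with Pinelliae between these doses, and higher by 1.83 with Coptidis.

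The dose effects of extracts that share the first number of their titles were then compared with each other. The log2 change of Coptidis (210 against 8.4 ug/mL) lay above that of Zizyphi (500 against 20 ug/mL) in 34 members. It lay below in 4, where 55.7% of all genes were called. ASNS was apart by 2.35 and PPP1R15A by 3.31 on the log2 scale. The differences are signed, so that lying below does not mean a weaker effect. The doses of these extracts differ. The log2 change of Scutellariae (500 against 20 ug/mL) lay above that of Pinelliae over the same doses in 31 members. It lay below in 1 (34.7%), with ASNS apart by 1.96 and ALDH18A1 by -0.54. Between fresh and dried ginger 2 members passed this test, ASNS (0.50) and SLC38A2 (0.22), and 0.655% of all genes were called. The call of SLC38A2 was lost in 10 of 19 alternatives, with an adjusted p of up to 0.309.

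Genes upstream of ATF4 were called about as often as all genes at 210 ug/mL of Coptidis (69.4%). Of 15 such genes, which encode the eIF2 kinases and their partners, eIF2 subunit alpha and its exchange factor, 6 rose and 5 fell, with a median log2 change of 0.01. PPP1R15B, the constitutive partner of the eIF2 phosphatase, rose by 0.86 and EIF2B2, an exchange factor subunit, by 0.61. EIF2AK3, which encodes PERK, fell by 0.43. With wortmannin, where 32.2% of all genes were called, 6 fell and 2 rose, with EIF2S1, which encodes eIF2 subunit alpha, at -0.37.

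Other known ATF4 targets outside the list rose with the same extracts. Of 14, 12 were tested, FGF21 and NIBAN1 having too few counts. At 210 ug/mL of Coptidis 11 rose and none fell (69.4% of all genes called), with a median log2 change of 1.51. ATF3, a repressor of the same family, rose by 4.18 and GDF15, a secreted stress hormone, by 4.11. SLC7A11, the cystine importer, which is also a target of NRF2, was at 710 ± 42.9 CPM, against 53.7 ± 1.65 with vehicle (SD, n = 3 each; log2 change 3.72). With Scutellariae 500 ug/mL 11 rose and 1 fell (50.2% of all genes called), and with fresh and dried ginger 500 ug/mL all 12 rose (46% and 42.4%). With wortmannin 3 rose and 4 fell (32.2%).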

How the data were processed

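Expected counts per gene were deposited by the authors for HepG2 libraries. Per the submitters' processing notes RSEM 1.3.3, STAR 2.7.3a, Trim Galore 0.6.5 and FastQC 0.11.9 were used, with build GRCh38 (hg38). Neither the annotation nor the strand setting is given in the sources used here. Of 267 columns, 59 were used and 208, which matched no sample here, were not. Counts were rounded (24.44% of nonzero values were not whole). Genes were filtered with filterByExpr, scaled by TMM and fitted in 1 model of 20 group means with edgeR 4.0.16 (quasi-likelihood, two-sided, common dispersion 0.00195, 39 residual degrees of freedom) in R 4.3.3, with Benjamini-Hochberg adjustment over 16641 genes. The procedure was tested on simulated data. Totals were 21582603 to 31392069 counts, median 25834162.

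The members, the lists and the comparison of 210 with 42 ug/mL were chosen with earlier results of these data known. Named with every library's value or a group mean are ASNS, ATF4, DDIT3, TRIB3, CHAC1 and the 4 members of each class whose group means ranged widest, members that moved against their class or share a locus, and, in other lists, the 2 called genes that changed most. Other members are named by role. Alternatives were RLE factors, unscaled totals, no filter, DESeq2 1.42.0, a fit of only the groups compared, a replicate block, and omission of single libraries or of the 3 that stood apart.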

Additional observations from a re-analysis of the deposited data

Results flagged for a closer look

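The dose effects of extracts whose titles share a first number differed by a test of the difference itself. For Coptidis against Zizyphi 38 members passed it (55.7% of all genes), for Scutellariae against Pinelliae 32 (34.7%), and for fresh against dried ginger 2 (0.655%), ASNS and SLC38A2, of which SLC38A2 lost its call in 10 of 19 alternatives. The doses of Coptidis (210 and 8.4 ug/mL) and Zizyphi (500 and 20 ug/mL) differ.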

How the results depend on the processing

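Counts of called members with Coptidis, wortmannin, the top 2 doses of both gingers against vehicle and Scutellariae stayed within 1.5 times under every alternative. With only the groups compared in the fit, the counts were 1 for dried ginger 20 ug/mL (0 in the model of all groups), 4 for Pinelliae 20 ug/mL (0), 12 for Zizyphi 500 ug/mL (7), 7 for Zizyphi 100 ug/mL (3), 0 for Zizyphi 20 ug/mL (4), 0 for Zizyphi 500 against 20 ug/mL (14), 1 and 2 for fresh against dried ginger at 500 and 100 ug/mL (10 and 0) and 1 for the difference of their dose effects (2). Without the 3 libraries that stood apart they were 15 for fresh ginger 20 ug/mL (7), 2 for Pinelliae 20 ug/mL, 13 and 8 for Zizyphi 500 and 100 ug/mL, 10 and 8 for the dose effects of Pinelliae (5) and Zizyphi (14), 2 for fresh against dried ginger 100 ug/mL and 1 for the difference of dose effects. With no filter they were 1 and 2 for Pinelliae 100 and 20 ug/mL, 8 for the dose effect of Pinelliae, 1 each for fresh against dried ginger at 100 and 20 ug/mL and 4 for the difference of dose effects. DESeq2 gave 13 for fresh ginger 20 ug/mL, 5 for Zizyphi 100 ug/mL, 2 for fresh against dried ginger 100 ug/mL and 5 for the difference of dose effects. The cause was not tested.

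Leaving out 1 library gave 0 to 12 for fresh ginger 20 ug/mL (0 without vehicle replicate 1, 12 without its own replicate 2), 5 to 8 for Pinelliae 500 ug/mL, 3 to 5 for Zizyphi 500 ug/mL, 1 in each case for Zizyphi 100 ug/mL and 0 to 7 for Zizyphi 20 ug/mL (0 without vehicle replicate 1 or its own replicate 1). It gave 3 to 6 for the dose effect of Pinelliae (3 without 20 ug/mL replicate 1), 6 to 20 for that of Zizyphi (6 without 20 ug/mL replicate 1), 4 to 10 for fresh against dried ginger 500 ug/mL and 1 to 5 for the difference of their dose effects. The 3 for Zizyphi 500 ug/mL came without vehicle replicate 2 or its own replicate 2 or 3.

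Unscaled library totals moved the median of all genes by -0.119, -0.162 and -0.151 (log2) at 210, 42 and 8.4 ug/mL of Coptidis. At 8.4 ug/mL 6358 genes in all were then called, 468 higher and 5890 lower, against 2656 with scaling, 1427 higher and 1229 lower. Of the members 22 were higher and 3 lower there, and NARS1 (-0.0162) and SLC1A4 (-0.0196) changed sign. The counts of all genes moved by over 1.5 times mainly where few were called, for example with only the groups compared to 264 (1) for Pinelliae 20 ug/mL, 322 (14) for dried ginger 20 ug/mL and 2 (1201) for Zizyphi 500 against 20 ug/mL.

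Replicate numbers did not pair the libraries: correlations of same-numbered deviations lay between -0.062 and 0.077. With a replicate block the count was 10 for fresh against dried ginger 500 ug/mL, and no count of members moved by over 1.5 times.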
